A study of Mus musculus with 3 samples.

Results

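The cells described here were sorted thymic T cells that carried transcripts of DNA replication genes and few mitotic transcripts. They were picked cell by cell from single-cell RNA-seq counts and are called S-phase cells after this rule, S phase being the part of the cell cycle in which the genome is copied. DNA content was not measured, and late G1 and early S phase cannot be told apart by this rule. A cell was counted as an S-phase cell when at least 4 of 10 replication genes (Mcm2, Mcm3, Mcm5, Mcm6, Ung, Uhrf1, Hells, E2f1, Dtl and Cdca7) were detected, when their unique molecular identifiers (UMIs, 1 per captured transcript) summed to at least 8 per 10000, when at most 1 of 7 mitotic genes (Ccnb1, Ccnb2, Cdc20, Cenpa, Cenpf, Ube2c and Hmmr) was detected, and when Siglech, a gene of plasmacytoid dendritic cells, had no UMI. Of 16172 called cells, 15961 had more than 200 and fewer than 6000 genes and less than 10% mitochondrial UMIs, and 1204 of these were S-phase cells. There were 325 of 4434 in the C57BL/6 library, 376 of 5970 in the BM only library and 503 of 5557 in the BM + Spl library. Because measured values chose the cells, the levels of these 18 genes, and every difference between S-phase cells and the other cells of the same library, are given as a description.

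Of the 10 replication genes, Mcm2, Mcm3, Mcm5 and Mcm6 encode subunits of the replicative helicase, E2f1 an activating E2F factor and Cdca7 a partner of the remodeller encoded by Hells. The 7 mitotic genes encode cyclins of mitosis, kinetochore and spindle proteins and parts of the anaphase-promoting machinery. Exactly 4 replication genes were detected in 8 members from C57BL/6, 34 from BM only and 27 from BM + Spl, and 6, 31 and 25 cells, in that order, missed membership with 3. Members between 8 and 9 UMIs per 10000 numbered 21, 15 and 23, against 31, 20 and 27 cells between 7 and 8 that were otherwise inside. The mitotic limit kept out 257, 137 and 256 cells, and Siglech kept out 0, 1 and 8.

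The study sorted TCRβ+ CD1d-tetramer+ CD24- NK1.1- cells after CD8 depletion, a gate for invariant natural killer T (iNKT) cells at their precursor stages, to ask how chronic graft-versus-host disease (GvHD) alters their development. The C57BL/6 library came from mice without bone marrow transplantation (BMT), at 7 weeks by the sample label, while the published text gives another age for them. BM only and BM + Spl libraries came from F1 (C57BL/6 x BALB/c) mice, lethally irradiated and given T cell-depleted C57BL/6 bone marrow, at 16 weeks, 9 weeks after BMT. BM + Spl mice also received C57BL/6 splenic cells and had GvHD. Each group was 1 library from pooled mice, so no test between groups was possible, and all intervals below are 95% intervals that cover counting error only. Donor and host cells were not told apart here. The C57BL/6 library differed from the others in strain, age, transplantation and in the software version that counted it, effects that cannot be told apart. The study names 3′ and 5′ library kits without saying which library used which. A Vβ UMI was found in 92 of the 325 S-phase cells of the C57BL/6 library, against 366 of 376 with BM only and 491 of 503 with BM + Spl, so a difference in chemistry cannot be told apart from the other differences of the C57BL/6 library. Between the BM only and BM + Spl libraries 43 cell barcodes were shared, 1 of them with the same UMI total, and 7 and 5 of these were S-phase cells. Neither of these libraries shared a barcode with the C57BL/6 library.

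iNKT cells carry an invariant T cell receptor α chain paired with a limited set of β chains and recognise lipids on CD1d. Their development depends on PLZF, encoded by Zbtb16, and leads to NKT1, NKT2 and NKT17 cells, which make interferon-γ, IL-4 and IL-17. T-bet (Tbx21) marks NKT1 and GATA3 (Gata3) NKT2 cells. Dividing thymic iNKT precursors enter S phase when E2F factors, freed from the retinoblastoma protein, switch on the genes for origin licensing, DNA polymerases and nucleotide supply, and the mitotic genes follow later under the CHR promoter element.

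The promoters of the genes that define these cells are shown because the replication genes and the mitotic genes of the selection differ in the motifs they hold. RefSeq promoters (GRCm38.p6, 250 bases before to 50 after the transcription start) were searched on both strands for TTTGGCGC, TTTCCCGC and TTTCGCGC (E2F) and for TTTGAA (CHR). Windows around the match follow, 5′ to 3′ on the strand of the gene, with the matched letters in capitals. Mcm5 (chr8:75109306-75109417, + strand) encodes a subunit of the replicative helicase, and its capitals are 2 overlapping E2F matches on opposite strands. Uhrf1 (chr17:56304078-56304185, + strand) reads hemimethylated DNA behind the fork. RefSeq gives Uhrf1 2 promoters, and the window is from the downstream one, while the one at the annotated gene start (chr17:56303087-56303386) held no match. Hells (chr19:38930878-38930985, + strand) is a chromatin remodeller, and Dtl (chr1:191575545-191575602, - strand) is the substrate receptor that degrades the licensing factor Cdt1. Cdc20 (chr4:118437344-118437411, - strand) activates the anaphase-promoting complex and Ube2c (chr2:164769850-164769928, + strand) is its ubiquitin-conjugating enzyme. The Ube2c match lies on the other strand.
Mcm5: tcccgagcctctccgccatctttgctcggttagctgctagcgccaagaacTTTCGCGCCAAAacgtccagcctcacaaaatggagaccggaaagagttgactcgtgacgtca
Uhrf1: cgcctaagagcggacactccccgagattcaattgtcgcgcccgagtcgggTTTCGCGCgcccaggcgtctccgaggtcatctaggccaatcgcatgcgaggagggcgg
Hells: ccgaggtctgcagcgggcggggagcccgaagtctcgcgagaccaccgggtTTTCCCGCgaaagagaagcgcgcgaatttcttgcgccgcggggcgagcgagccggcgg
Dtl: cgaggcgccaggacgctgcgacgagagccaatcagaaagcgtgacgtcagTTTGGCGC
Cdc20: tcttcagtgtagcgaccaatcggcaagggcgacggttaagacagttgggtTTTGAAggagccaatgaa
Ube2c: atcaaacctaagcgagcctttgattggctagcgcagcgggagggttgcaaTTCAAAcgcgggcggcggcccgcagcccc
A gene was counted when any of its promoters held a match. An E2F match was found for 7 of the 10 replication genes of the selection and 0 of the 7 mitotic genes, and a CHR match for 1 of 10 and 6 of 7. Of all 27025 genes with a promoter, 2.12% held an E2F match and 20.2% a CHR match. Among 5 replication gene lists outside the selection, 22 of 80 genes with a promoter held an E2F match (27.5%, exact binomial interval 18.1 to 38.6%) and 12 of 80 a CHR match. The E2F share was 42.1% for origin licensing, 33.3% for polymerases and the fork, 28.6% for chromatin assembly and 27.3% for repair and checkpoint genes, but 0 of 15 genes of dNTP supply held a match (upper bound 21.8%). Of 38 further mitotic genes, 1 held an E2F match (2.63%) and 26 a CHR match (68.4%, 51.3 to 82.5%). Ung, the uracil-DNA glycosylase, and Ccnb1, cyclin B1, had neither motif in this window.

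The levels of the genes that define the selection follow as a description, since the same rule set them in each library. Mcm5 was at 229 CPM (counts per 1000000 UMIs summed over the cells, Poisson interval 218 to 241) in C57BL/6, 221 (207 to 236) in BM only and 229 (218 to 241) in BM + Spl S-phase cells, against 46.4, 31.3 and 43.6 CPM in the other cells. A median member held 4, 2 and 3 Mcm5 UMIs. Uhrf1 stood at 102, 96.7 and 85.6 CPM, Hells at 172, 195 and 162 CPM, Ung at 126, 138 and 154 CPM and Dtl at 91.3, 71.8 and 68.1 CPM. Mcm6 was at 347, 445 and 424 CPM. E2f1 was lowest in C57BL/6, at 37.5 CPM (33.0 to 42.4), against 84.6 (76.0 to 93.9) in BM only and 73.0 (66.8 to 79.7) in BM + Spl. The genes lie on GRCm38 at chr8:75109569-75128439 (Mcm5), chr17:56303321-56323486 (Uhrf1), chr19:38930915-38971051 (Hells), chr5:114130386-114139323 (Ung) and chr1:191537356-191575544 (Dtl), where GENCODE annotates each as protein-coding. Median depth was 20241, 10333 and 13609 UMIs in S-phase cells and 11466, 4579.5 and 5998 in the other cells, so members were the deeper cells of each library. Their median mitochondrial share was 5.90%, 0.620% and 0.457%.

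Replication genes outside the selection were higher in the S-phase cells of every library. Past 1.5-fold, 93 of 99, 93 of 97 and 92 of 98 genes of the 5 replication lists with at least 100 UMIs were higher than in other cells and 0 were lower, with medians of 1.42, 1.86 and 1.29 on the log2 scale against -0.01, -0.06 and -0.12 for all genes. Over all genes compared, 9.15% were higher and 10.6% lower in C57BL/6, 11.5% and 17.2% in BM only, and 8.65% and 19.0% in BM + Spl. As the same cells were chosen on replication genes, nothing is read from these shares. All 26 genes of the polymerase and fork list were past the limit in each library, and so were 15, 16 and 16 of the 16 genes of dNTP supply.

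The 15 genes with the highest fold, each ranked by its lowest fold over the 3 libraries among 4875 genes with enough UMIs, included 12 of the replication lists. Cdc6, which loads the helicase at origins, led with 41.7, 46.0 and 44.1 CPM against 8.31, 5.97 and 9.10 CPM in other cells. Chek1, the kinase that guards stalled forks, was at 38.7, 34.0 and 30.7 CPM, and its log2 difference from other cells was 2.52, 3.20 and 2.23. Behind them came Cenps, a histone-fold protein of the kinetochore and of fork repair, Gins2 of the active helicase and Dscc1, a loader of the sliding clamp. Timeless, a fork protection factor, was at 80.5, 63.6 and 59.3 CPM. The list closed with the helicase subunits Mcm7 and Mcm4, the primase Prim1, Fignl1, an ATPase of recombination, the DNA ligase Lig1, the helicase activator Cdc45, the histone chaperone subunit Chaf1b and the recombination cofactor Psmc3ip. The log2 difference of Psmc3ip was 1.95, 2.36 and 1.84.

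**Figure D1:**
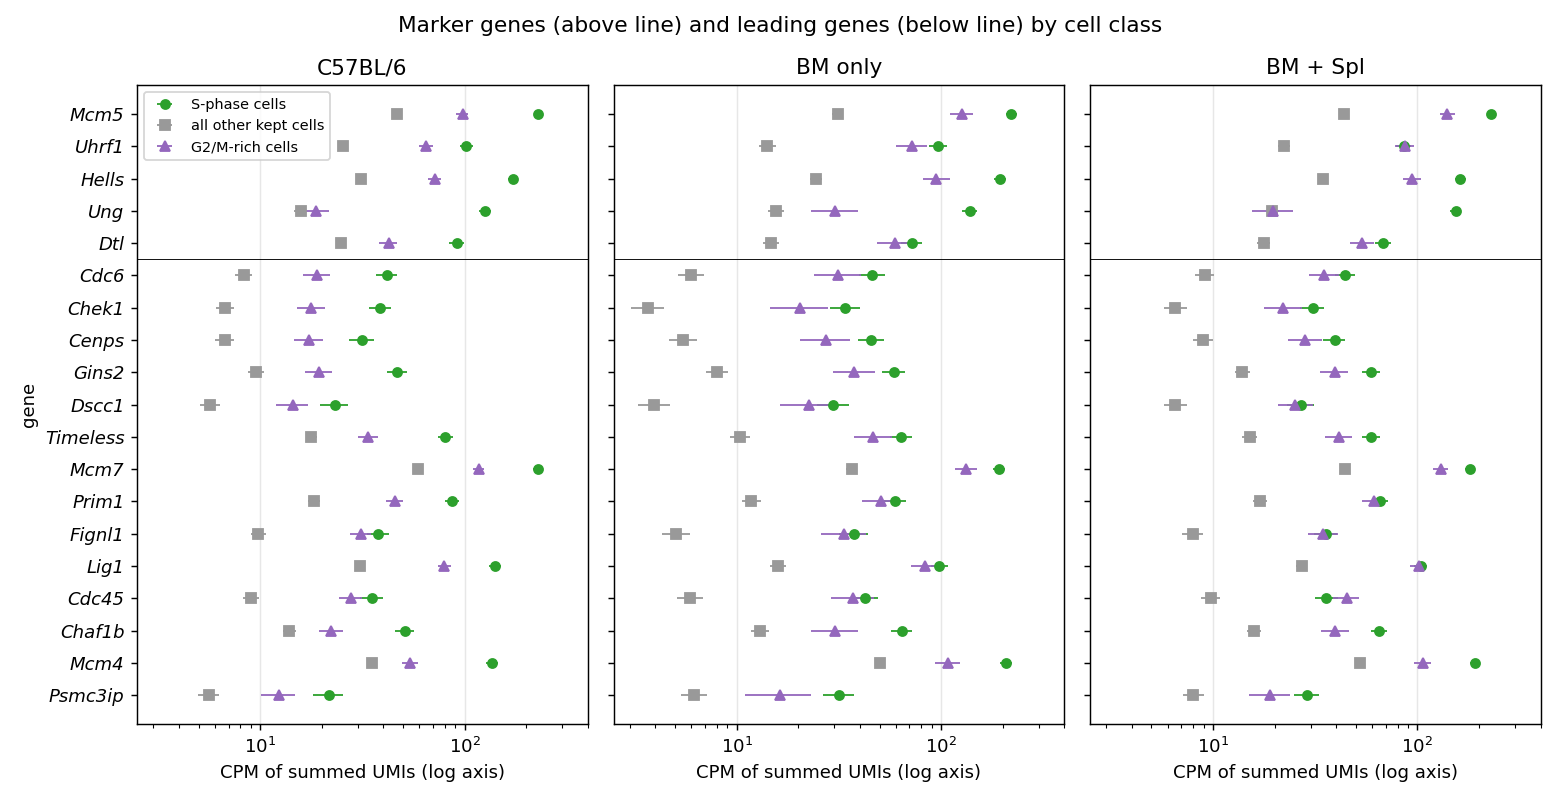
Levels of the 5 marker genes and of leading genes outside the selection, in CPM of summed UMIs on a log axis, in S-phase cells, all other kept cells and G2/M-rich cells of the 3 libraries, with 95% Poisson intervals. S-phase cells lie above other cells for each gene, and G2/M-rich cells mostly lie between them, as for Mcm5 at 229, 221 and 229 CPM in S-phase cells against 46.4, 31.3 and 43.6 CPM in other cells.

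Lineage and metabolic genes differed between S-phase cells and the other cells too. NKT1 genes were lower past 1.5-fold for 17, 16 and 13 of 19 genes, with medians of -1.80, -1.31 and -1.14, and summed to 550, 2173 and 1138 CPM against 1420, 5064 and 2223 CPM. NKT17 genes were lower for 5 of 12, 6 of 13 and 8 of 12, with medians of -0.28, -0.50 and -1.26. NKT2 genes lay close to the other cells, with 1, 5 and 1 higher and 1, 0 and 2 lower of 16, 15 and 16, and medians of -0.11, 0.11 and 0.04. As the rule used the same cells, nothing is read from these counts either. Interferon response genes were lower for 6, 6 and 5 of 10. Purine and pyrimidine synthesis enzymes, which supply the building blocks of RNA and DNA, were higher for 11, 12 and 12 of 16, with medians of 0.78, 0.93 and 0.89. Glycolysis genes summed to 5762, 11008 and 12494 CPM in S-phase cells and 4100, 6927 and 8853 CPM in other cells, with 4, 8 and 5 of 16 higher past the limit and 0, 1 and 1 lower, the last being the glucose transporter Slc2a3 in both BMT libraries (-1.03 and -1.08), named after its values were seen. Cell types and cycle phases are mixed in the other cells, so these values compare populations of different make-up.

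Genes of the later cycle separated the S-phase cells from 413, 134 and 259 G2/M-rich cells, which held at least 4 of the 7 mitotic genes. Ung was at 126, 138 and 154 CPM in S-phase cells but at 18.7, 30.4 and 19.7 CPM in G2/M-rich cells. Ccna2, cyclin A2, ran the other way, at 8.09, 19.0 and 16.4 CPM in S-phase and 91.6, 156 and 198 CPM in G2/M-rich cells. Mki67, the proliferation marker Ki-67, was at 76.6, 46.5 and 31.4 CPM in S-phase and 461, 275 and 303 CPM in G2/M-rich cells. A Mki67 UMI was found in 37.2%, 20.4% and 18.3% of S-phase cells with 2700 or more UMIs, and in 13.0%, 8.04% and 5.18% once each was thinned to 2700 UMIs, against 0 of 72 and 1 of 45 B-like cells of the BMT libraries. No Mki67 UMI was therefore detected in most S-phase cells. Detection fell with depth, so the share of cells that express Mki67 cannot be read from these values. Pcna, the sliding clamp, was more evenly spread, at 252, 230 and 222 CPM in S-phase and 148, 200 and 233 CPM in G2/M-rich cells. Ccne1, cyclin E1, was at 45.1, 35.4 and 35.5 CPM in S-phase and at 2.15, 2.96 and 2.51 CPM in cells with at most 1 replication and no mitotic gene.

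A further class met the replication criteria but held 2 or more mitotic genes (257, 137 and 244 cells without Siglech). Pcna and Ccne1 were highest there, at 330, 299 and 331 CPM and 82.4, 65.5 and 69.6 CPM. The 67 histone genes, taken by symbol (Hist) and not limited to replication-dependent ones, summed to 587, 1263 and 1117 CPM in S-phase cells. In the class with both gene sets they summed to 2720, 6432 and 6195 CPM. How fully these libraries captured histone transcripts was not tested. In cells with few cycle genes they summed to 204, 501 and 460 CPM, and in all other cells, which include the later cycle classes, to 683, 1068 and 1461 CPM. Against all other cells 2 of 45, 7 of 48 and 3 of 53 histone genes compared were higher in S-phase cells past 1.5-fold and 8, 4 and 17 lower, with medians of -0.32, 0.22 and -0.37. The S-phase cells thus lay below the other cells in C57BL/6 and BM + Spl and above them in BM only. Among the cycling classes the S-phase cells therefore had the lowest histone transcript levels, with a median of 2.99, 5.09 and 4.20 histone UMIs per 10000 against 8.90, 39.2 and 48.0 in the class with both gene sets and 9.38, 23.2 and 39.7 in G2/M-rich cells. Slbp, the histone stem-loop binding protein, was at 199, 227 and 196 CPM.

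**Figure D2:**
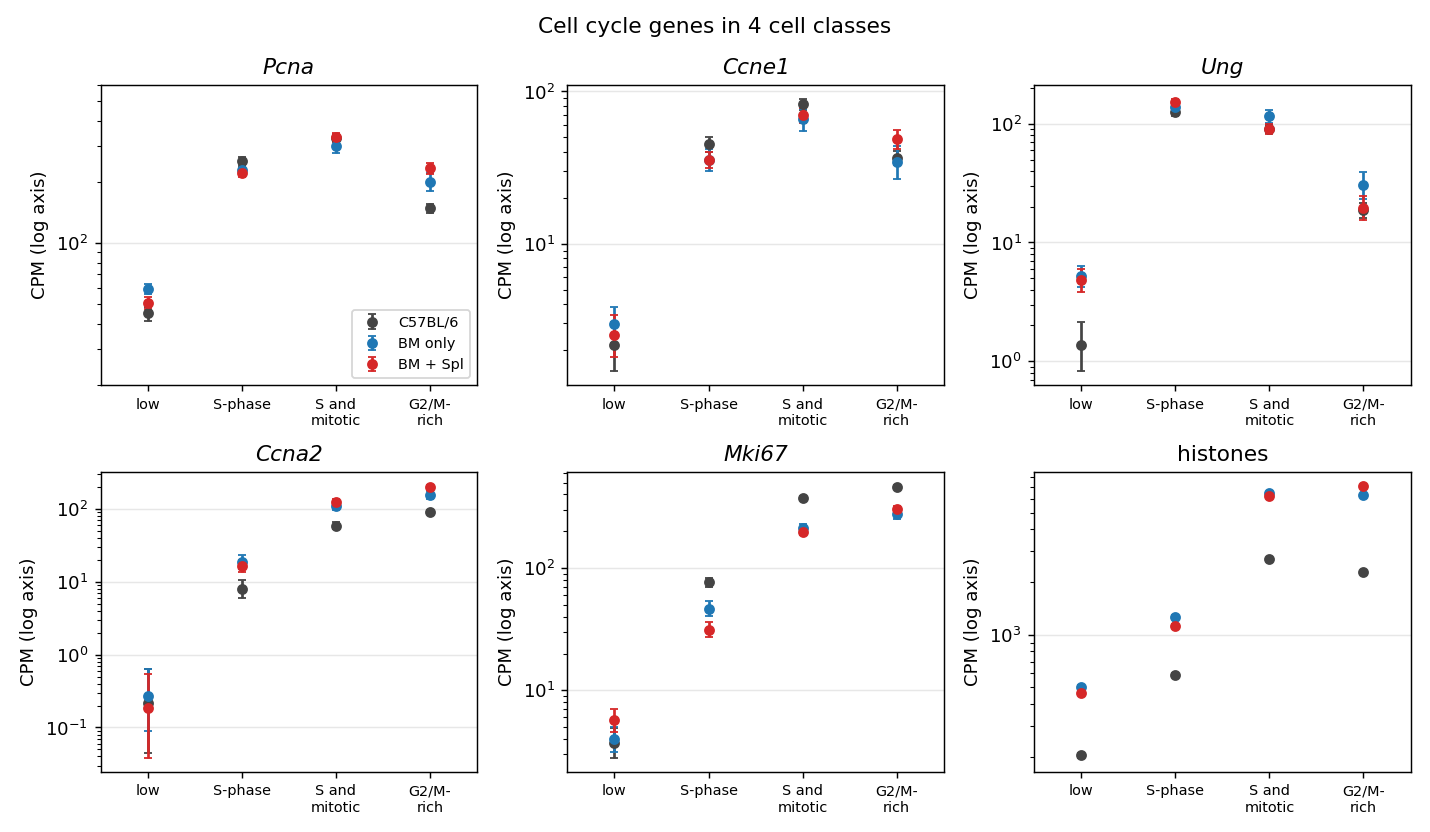
CPM with 95% Poisson intervals (log axes) of 5 cycle genes and the summed histone genes, by library, in cells with at most 1 replication and no mitotic gene (low), S-phase cells, cells meeting the replication criteria with 2 or more mitotic genes (S and mitotic) and G2/M-rich cells, the last 2 of which can overlap. Ung, a gene of the selection, peaks in S-phase cells, Pcna and Ccne1 in the class with both gene sets, and Ccna2 and Mki67 in G2/M-rich cells.

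The lineage genes of the S-phase cells matched the iNKT label in C57BL/6 and only in part in the BMT libraries. In C57BL/6, 93.5% of S-phase cells held a Zbtb16 UMI (304 of 325, exact binomial interval 90.3 to 96.0%). In BM only this was 54.5% (49.3 to 59.6%) and in BM + Spl 63.8% (59.4 to 68.0%). Thinned to 2700 UMIs the shares were 51.7%, 30.6% and 33.7% in S-phase cells and 44.8%, 18.7% and 22.0% in the other cells. B-like cells, which should lack the transcript, held a Zbtb16 UMI in 0 of 72 (BM only) and 1 of 45 cells (BM + Spl) at the same depth, with median depths before thinning of 6300 and 8003 UMIs. Summed Zbtb16 was at 309 CPM in C57BL/6, 184 CPM in BM only and 194 CPM in BM + Spl S-phase cells.

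Foxp3, the regulator of regulatory T (Treg) cells, marked a second population. No C57BL/6 S-phase cell held a Foxp3 UMI (thinned, 0 of 323, which allows a share of cells with a UMI of up to 0.929%, taken as 3 counts of the total, with an exact binomial upper bound of 1.14%), whereas 14.9% of BM only (11.5 to 18.9%) and 15.1% of BM + Spl S-phase cells did (12.1 to 18.5%). After thinning the shares were 9.12% and 9.96%, against 0 of 72 and 0 of 45 B-like cells. Zbtb16 and Foxp3 were found together in 1 BM only and 6 BM + Spl S-phase cells. Cd8a or Cd8b1, the chains of the CD8 co-receptor used for depletion before the sort, had a UMI in 3.69%, 10.6% and 8.75% of S-phase cells. None of Zbtb16, Foxp3, Cd8a and Cd8b1 was detected in 5.85%, 26.6% and 17.3%. The S-phase cells of the BMT libraries are therefore called by the selection rather than as iNKT cells.

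T cell receptor β segments gave a reading that does not depend on these genes. A cell was assigned a Vβ segment when at least 80% of its Vβ UMIs came from it, and 6 segments were taken as those of iNKT cells (Trbv29, Trbv13-3, Trbv13-2, Trbv13-1, Trbv12-2, Trbv1). A segment was assigned to 26.5%, 64.4% and 66.8% of S-phase cells. Of these, 79 of 86 (91.9%) in C57BL/6, 180 of 242 (74.4%) in BM only and 232 of 336 (69.0%, 63.8 to 74.0%) in BM + Spl used an iNKT segment. In other cells this was 90.8%, 75.5% and 52.4% (50.7 to 54.2%), so S-phase cells and other cells differed beyond counting error in BM + Spl. Among S-phase cells with a Zbtb16 UMI the share was 91.5%, 92.9% and 93.0%. With a Foxp3 UMI it was 7 of 44 (15.9%) in BM only and 15 of 58 (25.9%) in BM + Spl. With neither it was 56 of 72 (77.8%, 66.4 to 86.7%) in BM only but 32 of 80 (40.0%, 29.2 to 51.6%) in BM + Spl. Of the S-phase cells with a Trbv12-2 UMI, 2 of 9 in C57BL/6, 77.6% in BM only and 76.7% in BM + Spl also held a Trbv13-2 UMI. With these segments counted as 1, 81 of 88, 248 of 310 and 327 of 431 assigned S-phase cells used an iNKT segment.

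S-phase cells made up 7.33% of kept cells in C57BL/6 (6.58 to 8.14%), 6.30% in BM only (5.70 to 6.94%) and 9.05% in BM + Spl (8.31 to 9.84%). The log2 ratio of BM + Spl over BM only was 0.52 (0.34 to 0.71, Katz interval). The selection counts detected genes and so depends on depth. With every cell thinned to 2700 UMIs, leaving out 15, 955 and 563 shallower cells, the shares were 5.54%, 5.02% and 7.03% and the log2 ratio was 0.48 (0.26 to 0.71). At 5000 UMIs, where 224, 3201 and 2045 cells were left out, the shares were 9.00%, 13.8% and 15.3% and the log2 ratio was 0.15 (-0.03 to 0.32). The order of BM + Spl above BM only was kept at all depths, but at 5000 UMIs the interval included 0.

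**Figure D3:**
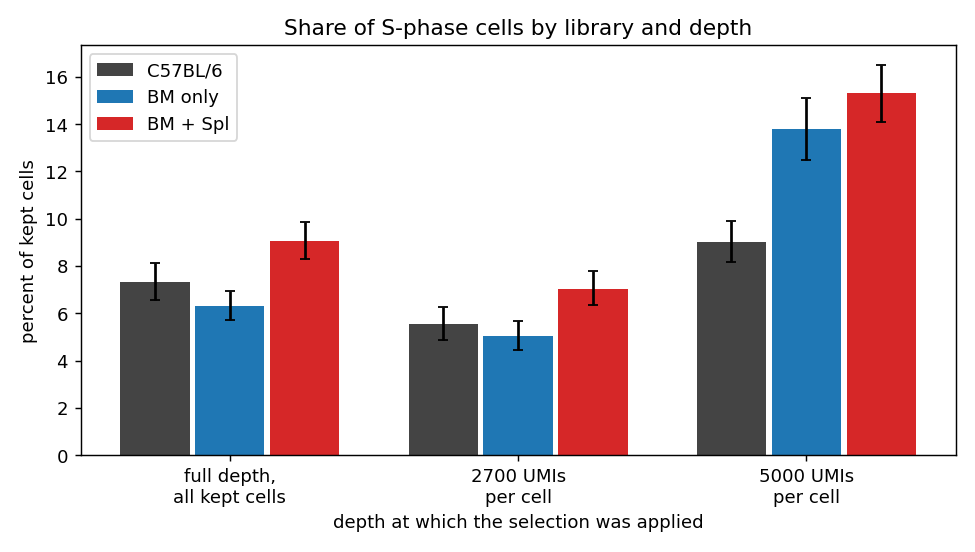
Share of S-phase cells among kept cells (percent, 95% exact binomial intervals) in the 3 libraries at full depth and with each cell thinned to 2700 or 5000 UMIs, cells below that depth being left out. BM + Spl stood above BM only in each set of bars (9.05% against 6.30% at full depth), and C57BL/6 lay between them except at 5000 UMIs, where it was lowest (9.00%).

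Among cells assigned an iNKT Vβ segment, the S-phase share was 6.16% (5.32 to 7.10%) in BM only and 11.8% (10.4 to 13.3%) in BM + Spl, and 4.70% and 8.71% after thinning to 2700 UMIs. Among cells with another Vβ segment it was 6.52% and 6.22%, and 6.14% and 5.08% after thinning. For 1 G2/M-rich cell there were 0.787 S-phase cells in C57BL/6, 2.81 in BM only and 1.94 in BM + Spl. Thinned to 2700 UMIs these ratios were 2.09, 6.15 and 4.88, in the same order.

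NKT2 was the most frequent gene program of the S-phase cells. Each cell, thinned to 2700 UMIs, took the list among NKT2, NKT1, NKT17, Treg and CD8 genes with the most detected members (at least 2). Of S-phase cells called at that depth, 73.5% (67.5 to 78.9%) were NKT2 in C57BL/6, 47.2% (40.9 to 53.6%) in BM only and 66.1% (60.9 to 71.0%) in BM + Spl. NKT1 took 6.94%, 21.8% (16.9 to 27.4%) and 5.70% (3.51 to 8.66%), NKT17 2.86%, 3.57% and 0.570%, and Treg 1.22%, 18.3% and 19.1%. No program was reached by 15.1%, 9.13% and 8.26%. The 3 Treg cells called in C57BL/6 had no support from Foxp3 or Ctla4, both at 0 UMIs in all its S-phase cells. G2/M-rich cells, called at full depth, were 67.2% (62.5 to 71.7%), 43.5% and 59.1% NKT2. NKT1 took 9.47%, 19.1% and 9.27% of them and Treg 2.67%, 19.8% and 17.8%. S-phase cells called at full depth were 77.1%, 43.2% and 62.2% NKT2. NKT1 took 9.60%, 27.1% and 6.97% of these and Treg 0.929%, 15.8% and 19.7%. The difference between the S-phase and G2/M-rich cells was not tested.

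Within the NKT2, NKT1 and Treg programs the intervals of the S-phase share overlapped between BM only and BM + Spl. This share counts cells by the rule. It leaves out the class with both replication and mitotic genes, so it is not the share of all cells copying DNA. Cells of the NKT2 program were S-phase cells at 7.17% (6.19 to 8.25%) in C57BL/6, 10.9% (9.15 to 13.0%) in BM only and 11.1% (9.76 to 12.5%) in BM + Spl. For cells of the NKT1 program the shares were 1.35%, 2.17% (1.64 to 2.81%) and 1.87% (1.15 to 2.87%), and for those of the Treg program 5.88%, 8.11% and 7.73%. For NKT17 cells they were 4.24%, 2.39% (1.10 to 4.48%) and 1.14% (0.138 to 4.04%), too few cells to show a difference of this size. Cells without a program were S-phase cells at 8.75%, 5.32% (3.40 to 7.88%) and 3.93% (2.65 to 5.59%). In each library the NKT1 share was below the NKT2 share, and the intervals did not overlap. Of NKT1 S-phase cells with an assigned Vβ segment, 55 of 62 in BM only but 8 of 20 in BM + Spl used an iNKT segment. The NKT1 shares therefore need not describe the same kind of cell. With only iNKT Vβ cells their order was reversed, as given below. The programs themselves differed in size, as NKT2 held 56.8%, 21.7% and 42.0% of all thinned cells and NKT1 28.6%, 50.6% and 21.4%. With the BM + Spl shares within programs weighted by the BM only sizes, 4.65% of cells would be S-phase cells, against 5.02% measured in BM only. With the BM only shares weighted by the BM + Spl sizes it would be 7.34%, against 7.03% measured in BM + Spl.

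**Figure D4:**
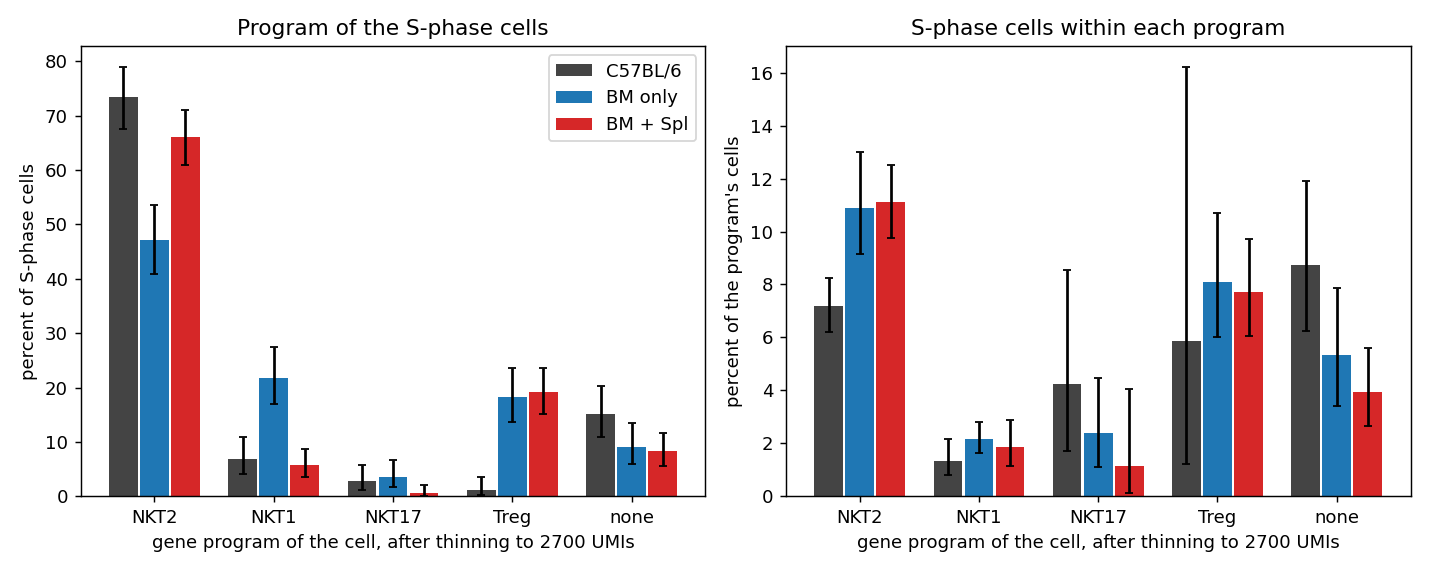
Left, the gene program of the S-phase cells of each library (percent of S-phase cells). Right, the percent of each program's cells that were S-phase cells by the rule. All cells were thinned to 2700 UMIs, bars carry 95% exact binomial intervals, and the CD8 program (0 or 1 S-phase cell per library) is not drawn. The left panel shows the larger NKT1 part in BM only (21.8%), and the right panel shows close bars for NKT2 in BM only and BM + Spl (10.9% and 11.1%).

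The replication genes of each program's S-phase cells were taken at full depth from the cells with 2700 or more UMIs, and are a description because all of these cells were chosen on replication genes. The 5 lists summed to 9382 CPM in NKT2, 8322 CPM in NKT1 and 8851 CPM in Treg S-phase cells of BM only, and to 8990, 8195 and 8441 CPM in BM + Spl. In NKT17 S-phase cells they summed to 6937 CPM (6530 to 7364, 15 cells) in BM only and 7379 CPM (6699 to 8108, 5 cells) in BM + Spl. In C57BL/6 the sums were 8078 CPM in NKT2, 7538 CPM in NKT1 and 8784 CPM (8342 to 9244, 8 cells) in NKT17 S-phase cells, so NKT17 was lowest of the named programs in the BMT libraries and highest of these 3 in C57BL/6. In BM + Spl its interval overlapped that of NKT1 (7925 to 8472). The regulators belong to the lists that made the calls and are a description only. In BM only, Zbtb16 was at 289 CPM in NKT2 and 4.72 CPM in Treg S-phase cells, and Tbx21 at 119 CPM in NKT1 against 6.96 CPM in NKT2. Vβ segments did not enter the calls. Those of iNKT cells were used by 90.9% of assigned NKT2, 88.7% of NKT1 (55 of 62) and 19.6% of Treg S-phase cells of BM only. In BM + Spl they were used by 93.3% of NKT2, 40.0% of NKT1 (8 of 20, 19.1 to 63.9%) and 24.4% of Treg S-phase cells.

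The comparison of BM + Spl with BM only addressed how S-phase cells differ between recipients with and without GvHD. Of 7932 genes with at least 100 UMIs over both sets of S-phase cells, 1.32% were higher in BM + Spl past 1.5-fold (105 genes) and 3.83% were lower (304 genes), with a median log2 ratio of -0.03. Both sets of cells were chosen by the same limits on replication and mitotic genes, so their cycle genes are a description. Of 95 replication genes compared, 0 were higher and 2 lower, namely Mcm8, a helicase of recombination, at -0.64 and Chtf18, a clamp loader subunit, at -0.91. The list median was -0.04. Both genes were named after their values were seen, as the count was small. Of 24 mitotic genes outside the selection only Tpx2, a spindle assembly factor, was past the limit, at -0.86 (18.8 CPM in BM only and 10.4 CPM in BM + Spl). Cyclin E2 (Ccne2) stood at 20.1, 15.2 and 8.62 CPM, a log2 ratio of -0.82 (-1.35 to -0.28) for BM + Spl over BM only. Of the other cycle lists, 0 of 16 purine and pyrimidine synthesis genes were past the limit (median 0.02), Ccne2 was the lone gene of 22 E2F and cyclin genes (median -0.02), and 3 of 32 histone genes were lower (Hist1h1a, Hist1h2af and Hist1h2bc, median -0.22). Myc, the growth regulator, was at 36.0 CPM in C57BL/6 and 143 CPM in both BMT libraries.

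Il4 led the NKT2 genes in BM + Spl S-phase cells. Il4, the NKT2 cytokine, was at 32.4 CPM in C57BL/6, 47.0 CPM in BM only and 93.1 CPM in BM + Spl, a log2 ratio of 0.99 (0.75 to 1.22) for the last pair. An Il4 UMI was held by 7.74%, 6.97% and 16.5% of S-phase cells thinned to 2700 UMIs (36.8%, 25.5% and 38.2% unthinned), against 0 of 72 and 0 of 45 B-like cells. Of 15 NKT2 genes compared, 4 were higher past 1.5-fold and 0 lower, with a list median of 0.41, itself within the limit (0.25 with only Zbtb16-positive members). Besides Il4 these were Izumo1r, a folate receptor family member, at 0.71 (217, 210 and 344 CPM), Plac8 at 0.70 (443, 237 and 384 CPM) and Il17rb, the IL-25 receptor, at 0.66, the last named after its value was seen. The regulators of the list were close between the libraries. Zbtb16 had a log2 ratio of 0.07 (-0.06 to 0.20) and Gata3 of -0.06 (-0.26 to 0.14), at 158, 83.2 and 79.6 CPM.

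Most NKT1 and NKT17 genes compared were lower in BM + Spl. Of 16 NKT1 genes compared, 10 were lower past 1.5-fold and 0 higher, with a median of -0.93 (-1.76 with only members of an iNKT Vβ segment). Tbx21 was at 12.4, 31.1 and 15.6 CPM (log2 ratio -0.99, -1.38 to -0.61). Nkg7, a cytotoxic granule protein, was at 53.2, 302 and 155 CPM (-0.97), and Gzma, granzyme A, at 3.15, 74.2 and 0.876 CPM. Gzma had 308 UMIs in BM only and 6 in BM + Spl, and 87 of the 308 came from 1 cell. Ly6c2, a memory marker, was at 63.6, 418 and 121 CPM (-1.79), but -0.38 among members with a Zbtb16 UMI. Ctsw (-0.52) and Il2rb (-0.51), a cathepsin of cytotoxic cells and the IL-15 receptor β chain, stayed within the limit. Ifng, interferon-γ, had a log2 ratio of 0.42, yet 386 of its 525 UMIs in BM + Spl came from 1 cell, and without the highest cell of each library the ratio was -1.36 (-1.68 to -1.05). Of 6 NKT17 genes compared, 5 were lower and 0 higher (median -0.82). This median rested on few genes and cells, at -0.39 with no mitotic gene allowed and -2.95 with only Zbtb16-positive members. Ccr6, a chemokine receptor, was at -0.60, and at -0.56, within the limit, without the highest cell of each library. Blk, a Src kinase, was at 16.3, 23.1 and 3.51 CPM (-2.72), and Ccr2, another chemokine receptor, was the gene within the limit, at 0.16.

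In the other cells of these libraries the list medians were 0.63 for NKT2, -1.24 for NKT1 and -1.07 for NKT17 genes, and 0.34 for replication genes, against 0.02 for all genes. Treg genes in S-phase cells had a median of 0.37, with 1 of 8 higher (Il2ra, the high-affinity IL-2 receptor, 58.6 and 89.7 CPM, 0.61), and a median of -0.05 with only Zbtb16-positive members. Foxp3 was at 42.7 CPM in BM only and 53.6 CPM in BM + Spl (0.33, 0.07 to 0.60). Cd4 was at 51.4, 51.3 and 73.9 CPM (0.53). Cd8a was at 29.2 CPM in BM only and 17.7 CPM in BM + Spl S-phase cells (-0.72, -1.10 to -0.35), but at 40.3 and 85.0 CPM in the other cells. Of its 121 UMIs in BM only S-phase cells, 31 came from 1 cell, and without the highest cell of each library the ratio was -0.51 (-0.93 to -0.08), within the limit. Of 16 precursor genes compared, 0 were higher and 2 lower, the emigration regulator Klf2 (-0.65) and the activation marker Cd69 (-0.86), while Lef1, a TCF family factor, was at 307, 405 and 446 CPM (0.14). Egr2, which acts early downstream of the receptor in iNKT cells, was at 9.59, 15.2 and 14.8 CPM.

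Some interferon response genes were higher in BM + Spl, and most stress genes were lower. Of 8 interferon genes compared, 4 were higher past 1.5-fold, 0 lower and 4 within the limit. Their median of 0.54 was itself within the limit. In the other cells 3 of 10 interferon genes were higher and 0 lower, with a median of 0.39. Of all 11483 genes compared there, 822 were higher and 721 lower. Ifi27l2a was at 621, 907 and 1498 CPM (0.72, 0.67 to 0.78). Of 12 immediate early and heat shock genes, 8 were lower and 0 higher (median -1.05). In the other cells 9 of these 12 were lower and 0 higher (median -0.93), so the lower level was not particular to S-phase cells. Hspa1a, an inducible heat shock protein, was at 1.05, 108 and 9.50 CPM (-3.51) and its near-identical copy Hspa1b at 0.899, 163 and 22.9 CPM (-2.83), so reads may have been split between them. Dusp1, a phosphatase, was at 16.9, 464 and 226 CPM (-1.04), whereas the constitutive chaperone Hspa8 was at 2166, 2885 and 3197 CPM (0.15). Past the limit were 0 of 14 glycolysis genes (median 0.18) and 0 of 14 T cell receptor and costimulation genes (median 0.09). Gapdh, a glycolytic dehydrogenase, was at 1910, 4391 and 4967 CPM and Cd3e, a signalling chain of the T cell receptor complex, at 283, 815 and 697 CPM.

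**Figure D5:**
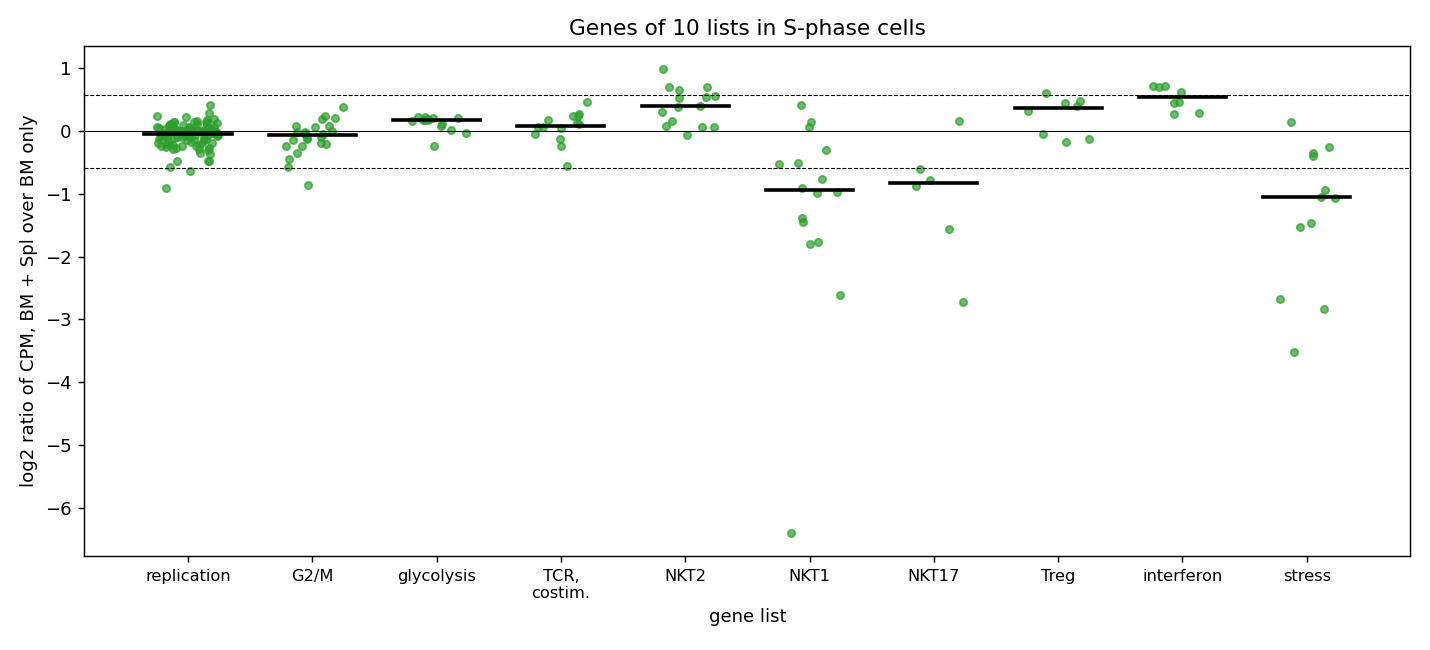
Log2 ratio of CPM, BM + Spl over BM only, in S-phase cells. Each point is a gene of the named list with at least 100 UMIs over both libraries, bars mark list medians, and dashed lines the 1.5-fold limits. The medians are -0.04 for replication genes and 0.41 for NKT2 genes, and those of NKT1 (-0.93), NKT17 (-0.82) and stress genes (-1.05) lie past the lower limit. Gzma is the lowest point.

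Some of the largest ratios rested on few cells, and others were spread over many. Ccl1, a chemokine, had 2 UMIs in BM only and 1228 in BM + Spl (8.54, 6.68 to 11.59), in 22 of 503 S-phase cells, with 377 of the UMIs in 1 cell. Gzmc, granzyme C, was at 7.23 and 150 CPM (4.38), with all 1029 UMIs of BM + Spl in 8 cells. The other genes among the 10 highest were Trbv14, Akr1c18, a steroid dehydrogenase, Lgals7, a galectin, Trbv20, Igfbp7, Trav4-4-dv10, Def8 and Lta, lymphotoxin α, with log2 ratios from 2.98 for Trbv14 to 1.70 for Lta. Lta was at 6.00, 12.5 and 40.6 CPM, spread over 35, 37 and 84 S-phase cells. At the low end stood Lyz2, the macrophage lysozyme, with 270 of 274 BM only UMIs in 1 cell, and Mgl2, a macrophage lectin, with 88 of 92 UMIs in 1 cell and a ratio of -0.14 without the highest cell of each library. Cfap77 was at 0.600, 208 and 23.5 CPM (-3.15, -3.40 to -2.90), held by 122 BM only and 117 BM + Spl S-phase cells, and Hspa1a and Hspa1b were held by 122 and 165 BM only S-phase cells. Atf3, a stress-induced factor (-2.68), Agrp (-2.62) and the NK receptor gene Klra9 (-2.86) made up the rest of the 10 lowest with Gzma, Blk, Hspa1a and Hspa1b. Of 148 named genes, 8 moved by more than 1.5-fold when the cell with the most UMIs of the gene was left out of each library (Akr1c18, Ifng, Igfbp7, Klra9, Lyz2, Mgl2, Trbv14 and Trbv20).

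Markers of other cell types were low but present, and doublets were not removed. At least 2 B cell genes or at least 2 macrophage and dendritic genes were detected in 26 of 325 C57BL/6 S-phase cells, in 21.0% and 24.7% of those of the BMT libraries and in 4.45%, 18.8% and 27.2% of other cells (in the order C57BL/6, BM only, BM + Spl). The 8 B cell genes summed to 54.4, 346 and 398 CPM in S-phase cells and 92.6, 1415 and 1939 CPM in the other cells. Cd74, the MHC class II chaperone, gave 69.4% and 81.1% of that sum in the BMT libraries, and Ebf1 (BM only) or Pax5 (BM + Spl) was at 0. The 12 macrophage and dendritic genes summed to 25.9, 183 and 95.1 CPM, against 44.6, 655 and 928 CPM in the other cells, with Fcer1g the most abundant and C1qa, C1qb and C1qc at 0 in all libraries. The 8 plasmacytoid dendritic genes summed to 331, 264 and 380 CPM, against 300, 711 and 1553 CPM in the other cells, led by Ccr9 in C57BL/6 and Bst2 in the BMT libraries, genes that T cells also express. Their Cox6a2, Cd300c and Klk1 were at 0 in C57BL/6 and BM only and Klk1 in BM + Spl. Rag2, a recombinase of immature thymocytes, was at 0 in all libraries, and red cell genes had 1, 2 and 1 UMIs. Between BM + Spl and BM only S-phase cells, 2 of 3 plasmacytoid dendritic genes compared were higher (Irf8 and Bst2). Lower were 1 of 3 macrophage genes (Lyz2) and 1 of 3 CD8 genes (Cd8a, but not without its highest cell in each library). The Lyz2 call rested on 1 BM only cell. Without the highest cell of each library 1 UMI was left in BM + Spl and 4 in BM only (-2.72, -8.34 to 0.61). Past the limit were 0 of 2 B cell genes and 0 of 1 γδ T cell genes. The part of these cell types in the lists above was not tested. The NKT1 list median of BM + Spl over BM only without members holding B or macrophage genes was -1.56.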

How the data were processed

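Droplet single-cell RNA-seq of sorted thymocytes was deposited by the authors as unnormalized UMI counts per gene and cell. Cells were called by Cell Ranger on mm10 (3.0.2 for C57BL/6, 7.0.0 for both BMT libraries, per the file headers). The published methods name another Cell Ranger version, which differs from both. The submitters' processing notes also name Seurat 4.0.2, and the intron setting is not given in the sources used here. The libraries held 60600408, 35041153 and 43383960 UMIs (C57BL/6, BM only, BM + Spl). The filter on genes and mitochondrial UMIs is the one the study states. It left 4434, 5970 and 5557 cells here, fewer than the study gives for C57BL/6 and more for both BMT libraries. The shares of S-phase cells among kept cells rest on these numbers. Doublets were not called.

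Counts were summed over the S-phase cells of a library and scaled to counts per 1000000 UMIs (CPM) over the 30406 genes shared by all libraries. UMIs outside these genes were 0.0995%, 0.435% and 0.449% of each total. With 1 library per condition no test was run. Intervals are Poisson (CPM), Clopper-Pearson (shares), Katz (ratio of shares) and conditional binomial (log2 ratios). A gene was compared with at least 100 UMIs over both sets of cells and counted past 1.5-fold. Other cells are all kept cells outside the selection. B-like cells held at least 2 of 4 B cell genes (Cd79a, Cd79b and Ms4a1 among them) and no Cd3e. Shares of cells with a UMI and programs were taken after thinning to 2700 UMIs without replacement. No per-sample column was left unused, and 0 replicates exist.

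The members and lists were chosen with earlier results of these data known. Named genes were the 5 markers, from each list the 4 with the most UMIs and the highest and lowest ratio, the 15 leading genes, the 10 highest and 10 lowest ratios, and 9 lineage regulators. Some of these genes are not reported here. Promoters are from RefSeq (GRCm38.p6) and gene positions from GENCODE (GRCm38). Python 3.11.15, numpy 2.4.6, scipy 1.17.1, pandas 2.3.3 and matplotlib 3.10.9 were used, and the calculations were tested on simulated data. Alternatives changed the depth, the limits of the selection, the members, the scaling, the UMI minimum and the program limit.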

Additional observations from a re-analysis of the deposited data

Results flagged for a closer look

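Of 7932 genes compared in both S-phase and other cells, 12 had log2 ratios of BM + Spl over BM only that were past 1.5-fold in one direction in S-phase cells and in the opposite direction in the other cells of the same libraries. The difference between S-phase cells and other cells was not tested, since each condition had 1 library. The rule left cells with several mitotic genes or with Siglech among the other cells. These held 134 G2/M-rich cells in BM only and 259 in BM + Spl, with Siglech at 62.9 and 154 CPM. Genes of the CD8 list summed to 121 and 241 CPM there. The part of this make-up in the opposite signs was not tested. Knl1, a kinetochore scaffold, was at -0.80 in S-phase cells and 1.02 in other cells. Tpx2 was at -0.86 and 0.85, and Chtf18 at -0.91 and 0.88. Cd8a was at -0.72 in S-phase cells and 1.08 in other cells, but at -0.51 in S-phase cells without the cell with the most Cd8a UMIs in each library, which is within the limit. The segment Trbv15 was at -0.95 and 1.11, Trbv4 at -0.68 and 0.76, and the γ chain segment Tcrg-V1 at 0.80 and -0.95. Sdc4, a syndecan, was at -0.92 and 0.62, Grn, progranulin, at -0.87 and 0.97, Eln, elastin, at -1.57 and 0.75, and Alox5ap, the activating protein of 5-lipoxygenase, at -1.30 and 0.79. Stc2, a stanniocalcin, was at 0.91 in S-phase cells and -0.70 in the others.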

How the results depend on the processing

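No paired analysis was possible because each condition had 1 library, and there was no replicate to leave out. Of 168 values of the main results under alternatives, 110 moved by less than their counting interval or 1.5-fold and 58 moved further. Of the log2 values past 1.5-fold, 0 reversed. The order of the BMT libraries within some programs did reverse, as given below. The Treg median, which was within 1.5-fold, changed sign, and the replication and mitotic medians lay on both sides of 0. Of 1607 values for single genes and shares, 1425 held and 182 moved. The cause of each move was not tested.

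Shares of S-phase cells (C57BL/6, BM only, BM + Spl) were 5.54%, 5.02% and 7.03% at 2700 UMIs, 9.00%, 13.8% and 15.3% at 5000 UMIs, 5.44%, 5.11% and 7.23% with a limit of 12 UMIs per 10000, and 11.8%, 7.54% and 11.4% without this limit. They were 4.01%, 4.42% and 5.49% with no mitotic gene allowed and 9.16%, 7.14% and 10.4% with 2 allowed. The log2 ratio of BM + Spl over BM only ranged from 0.15 (5000 UMIs) to 0.94, and was 0.31 with no mitotic gene. With only iNKT Vβ cells the BM + Spl share was 11.8% (log2 ratio 0.94). With only Zbtb16-positive cells after thinning, an alternative chosen after seeing the data, the shares were 6.35%, 7.84% and 10.4%. Merging Trbv12-2 and Trbv13-2, chosen likewise, gave 12.6% in BM + Spl (log2 ratio 0.90).

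Genes past 1.5-fold numbered 40 higher and 81 lower at 2700 UMIs, 214 and 550 with a minimum of 50 UMIs, and 30 and 80 with 300. With no mitotic gene allowed 199 were lower. The NKT1 median was -1.29 at 2700 UMIs, -1.27 with equal weight per cell, -1.56 without members holding B or macrophage genes, -1.76 with only iNKT Vβ members and -1.39 with only Zbtb16-positive members. The NKT17 median was -1.55 with 50 UMIs, -1.25 with iNKT Vβ members, -0.39 with no mitotic gene and -2.95 with Zbtb16-positive members, and the Treg median was 0.19 at 2700 UMIs and -0.05 with Zbtb16-positive members. Medians of NKT2 genes (0.25 to 0.58), replication genes (-0.08 to 0.04) and mitotic genes (-0.14 to 0.01) moved within these limits.

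S-phase shares within programs at 5000 UMIs were 11.7%, 19.3% and 18.1% for NKT2 and 2.59%, 8.70% and 7.57% for NKT1. They were 7.96% (BM only) and 4.55% (BM + Spl) for NKT17, and 20.5% and 18.8% for Treg. With 3 program genes required the NKT17 share of BM + Spl was 0%. With only iNKT Vβ cells the NKT17 shares were 2.44% in BM only and 4.88% in BM + Spl, and the Treg shares 5.31% and 7.78%. The NKT1 shares were 2.23% and 2.55%. For these programs BM + Spl then stood above BM only, the reverse of the main values. Those were 2.39% and 1.14% for NKT17, 8.11% and 7.73% for Treg, and 2.17% and 1.87% for NKT1. For NKT2 the order was kept with only iNKT Vβ cells, at 10.4% and 11.4%, but was reversed at 5000 UMIs, at 19.3% and 18.1%.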

Other observations

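The cells that carried Ccl1, Cfap77 and Gzma, which were among the genes with the highest or lowest ratios, were described after their values were seen. In BM + Spl, 0 of the 22 S-phase cells with a Ccl1 UMI held a Zbtb16 UMI and 5 held a Foxp3 UMI, and by program 8 were Treg, 7 NKT1, 1 NKT2 and 6 without a program. Ccl1 was also found in 289 other cells of that library (5.72%). Cfap77 was held by 122 BM only S-phase cells (32.4%), of which 59 also held a Zbtb16 UMI and 62 were of the NKT1 program, and by 117 BM + Spl S-phase cells (23.3%), of which 76 held a Zbtb16 UMI and 9 were NKT1. Gzma in BM only came from 17 S-phase cells, 14 of them NKT1.

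S-phase shares also differed by the lineage gene detected at full depth. Of cells with a Zbtb16 UMI, 8.87% were S-phase cells in C57BL/6 (7.94 to 9.87%), 11.5% in BM only (10.0 to 13.1%) and 16.2% in BM + Spl (14.6 to 17.9%). With gene detection at 2700 UMIs and the same S-phase cells, these shares were 8.35%, 11.6% (9.67 to 13.8%) and 14.6% (12.6 to 16.7%), where the intervals of the BMT libraries overlapped. Of cells with a Foxp3 UMI it was 8.64% and 10.2% in the BMT libraries, and 8.29% and 10.7% after thinning. Of cells with a Cd8a or Cd8b1 UMI it was 14.1%, 6.91% and 4.52%, where the first rests on 12 of 85 cells, and 22.2% (4 of 18 cells), 6.02% and 3.22% after thinning. S-phase cells were deeper than the other cells in each library, and detection of these genes rises with depth.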
